A study of Mus musculus with 24 samples.

Results

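The suppressors of cytokine signalling (SOCS) and their relative Cish were followed by RNA sequencing in CD4+ T cells from the spleen of wild-type C57BL/6 mice. Of the 22009 named genes measured, 7 were taken by name, Cish, Socs1, Socs2, Socs3, Socs5, Socs6 and Socs7. No threshold on a measured value was used, but earlier results of these data were known when they were chosen. Levels are in RPKM, the reads of a gene scaled to the length of its transcript and to the mapped reads of the library. Genes can be set beside each other as far as the lengths used are right. Of the 7 genes, these lengths could be recovered for Socs1 and Socs5 only, which limits orders and shares between genes. All 7 genes passed the filter on low values, a time-course mean of 1 RPKM or more. Socs4, the remaining gene of the family, was not chosen and is given for its level only.

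SOCS proteins are brakes on cytokine receptors. A cytokine bound to its receptor activates Janus kinases (JAKs), which phosphorylate STAT transcription factors, and the STATs in turn switch on genes of this family, so that the inhibitor is made by the signal it limits. Each protein holds an SH2 domain, which binds phosphorylated tyrosine, and a SOCS box, which recruits an elongin and cullin ubiquitin ligase. In T helper cells Cish and Socs2 are known as targets of STAT5 downstream of IL-2, Socs1 as an inhibitor of interferon-γ and IL-4 signalling, and Socs3 as an inhibitor of receptors that use gp130 and of IL-12 signalling.

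The time course held 20 libraries. There were 2 libraries of resting cells and 18 of cells activated with antibodies to CD3 and CD28 for 4, 8, 12, 16, 20 or 24 h. Th0 cultures had those antibodies alone, Th1 cultures had IL-12 and an antibody that blocks IL-4 in addition, and Th2 cultures had IL-4 and antibodies that block IL-12 and IFN-γ. Each condition had 1 library at each time point. A further 4 libraries followed RNA decay, with actinomycin added to block transcription after 16 h of stimulation and cells taken 0, 1, 2 or 4 h later, and their culture condition is not given by the labels. All cells were wild type, and the study's text describes cells pooled from 6 mice. The labels give negative selection of CD4+ cells on magnetic beads, so the starting cells may hold memory and regulatory T cells, while the study's methods name naive cells. The libraries had 17512385 to 33017133 mapped reads.

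Titles of resting and cultured samples differ in a tag, so preparation and activation cannot be told apart in comparisons with rest. T cell markers summed to 2009 and 2032 RPKM at rest and to 1223 to 1631 RPKM in the cultures, and none of the 7 was at 0. Markers of macrophages and monocytes, 12 genes, summed to 843 and 863 RPKM at rest, 80.5 to 120 RPKM at 4 h and 17.3 to 25.8 RPKM at 24 h. Of their 10 tested genes, 9 were lower at 4 h and 10 at 24 h, where 7.97% and 17.4% of all genes were. Markers of red cells fell later, from 38900 and 42453 RPKM at rest to 142 to 212 RPKM at 24 h, with 9 of 9 genes lower. B cell markers summed to 81.3 and 91.5 RPKM at rest and to 10.9 to 19.6 RPKM at 24 h, with 8 of 8 tested genes lower. NK cell markers went from 213 RPKM in each resting library to 60.2 to 101 RPKM at 24 h, with 5 of 7 lower. Neutrophil markers were at most 21.2 RPKM in any group, with Ly6g at 0 in the resting libraries, and the 2 CD8 markers were at most 15.7 RPKM. In these bulk samples, fewer cells of a type and less RNA per cell cannot be told apart, and the part of such cells in the results on the SOCS genes was not tested.

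Activation reordered the family. At rest Socs3 had the highest level of the 8 genes, 39.2 and 42.5 RPKM, which was 35.4% and 37.6% of their summed RPKM. Socs1 with 15.2 and 16.8 RPKM, Cish with 14.6 and 14.9 RPKM and Socs4 with 12.7 and 12.9 RPKM followed, then Socs6, Socs7, Socs2 and Socs5, from 9.37 down to 4.65 RPKM. The ranges of the 2 resting libraries did not overlap between neighbours in that order. For Socs1 and Cish the order is within counting error. The 95% interval for counting error of Socs1 in replicate 1, 13.7 to 16.8 RPKM, covers both Cish values.

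In every culture Cish and Socs1 together made up 57.9% to 82.6% of the summed RPKM of the family, against 26.9% and 28.1% at rest. Socs1 was the most abundant gene at 4 h in all conditions. Cish took that place from 16 h in Th0, from 12 h in Th1 and from 8 h in Th2 cultures, and held it at each later time. The sum was 111 and 113 RPKM at rest, 169 to 217 RPKM in Th1, 221 to 323 RPKM in Th0 and 250 to 406 RPKM in Th2 cultures. Averaged over the 6 time points, Socs1 and Cish overlapped in their ranges in each condition, as did Socs2, Socs4, Socs7 and Socs5 with the gene ranked just above them and Socs6 in Th2 cultures. Socs3 in the third place lay wholly below the gene above it in all conditions.

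**Figure D1:**
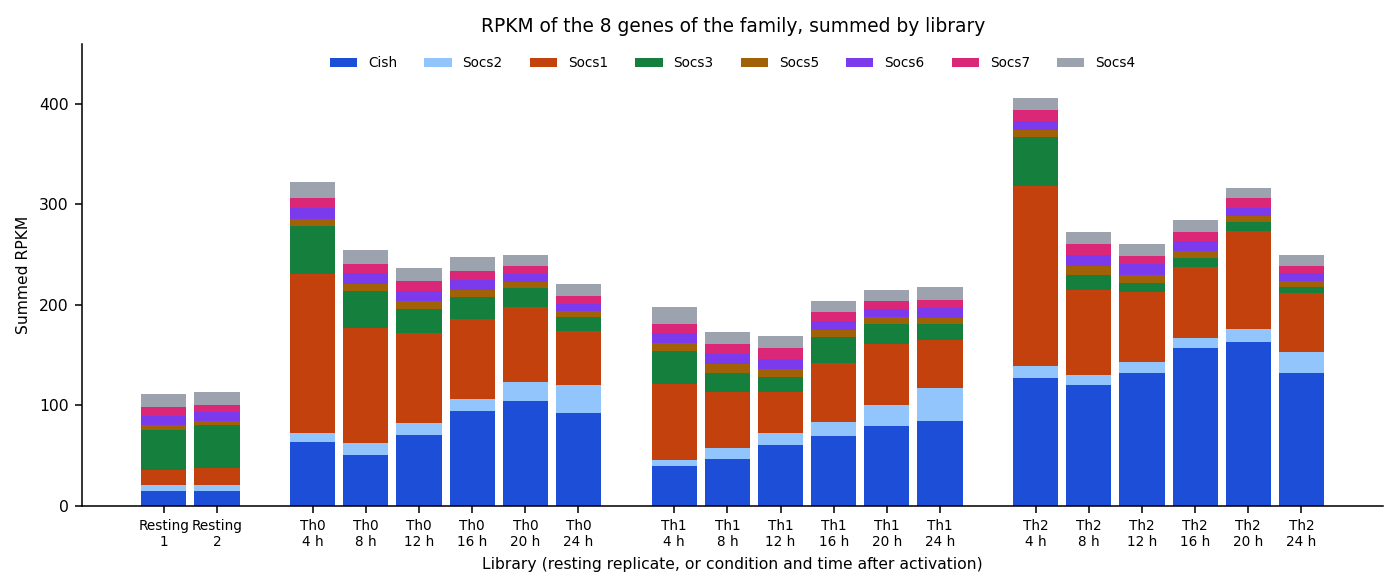
Stacked bars give the RPKM of the 8 genes in each library of the time course, by resting replicate or by condition and hours after activation. The bars reach 111 and 113 RPKM at rest and 406 RPKM in Th2 cultures at 4 h, and Cish and Socs1 take most of each culture's bar.

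Each time point was compared with rest by limma, with its 3 cultures as the libraries, and a gene was called where it changed at least 2-fold with an adjusted p under 0.05. Fold changes are differences of log2(RPKM + 0.5). Of the 7 genes, 2 were called at 4 h, 2 at 8 h, 3 at 12 h, 2 at 16 h, 4 at 20 h and 4 at 24 h. Over all 10897 genes tested, 10.6% were called at 4 h, 18.9% at 8 h, 27.1% at 12 h, 25.7% at 16 h, 29% at 20 h and 30.1% at 24 h. Cish and Socs1 were called at all 6 time points, Socs2 and Socs3 at some, and Socs5, Socs6 and Socs7 at none. Because the cultures of a time point had different cytokines, the spread between them includes the differences between conditions described later.

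**Figure D2:**
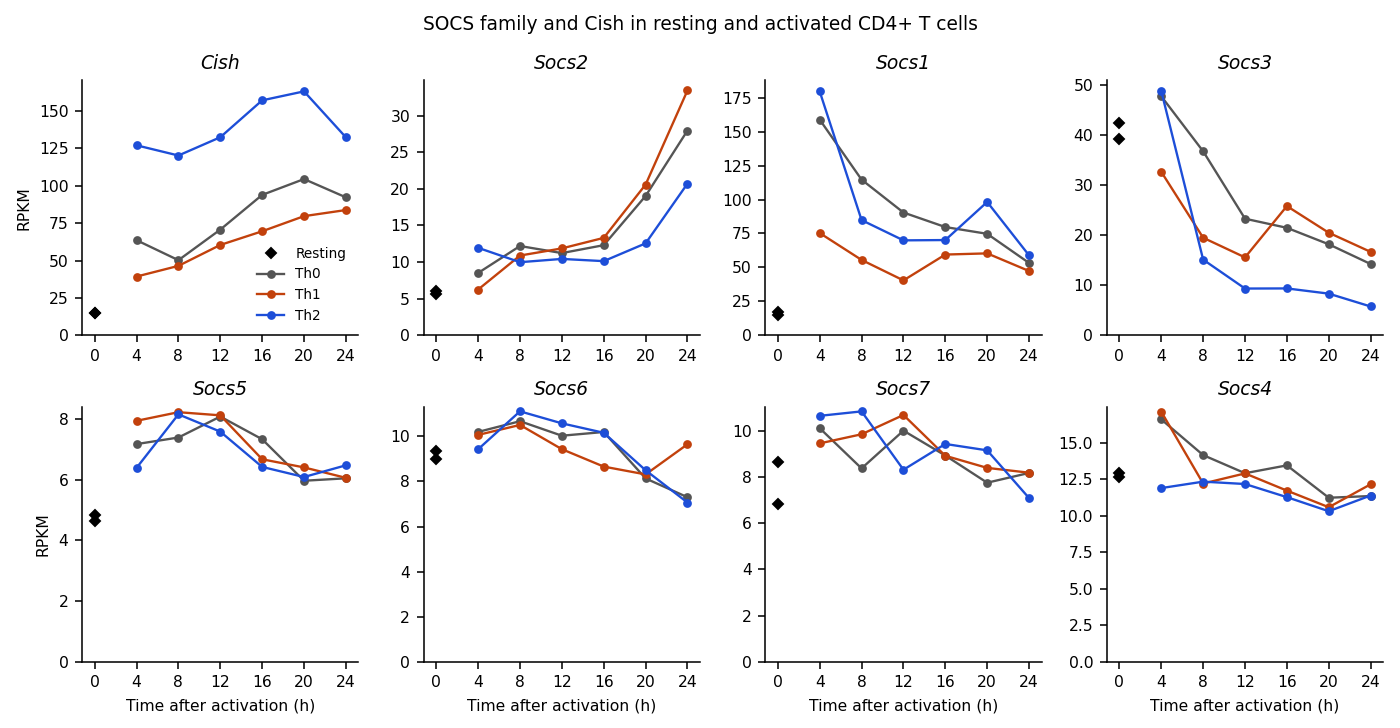
Each panel plots the RPKM of 1 gene against hours after activation, with 1 point per library, lines joining the time points of a condition and diamonds for the resting libraries. Cish and Socs1 lay above rest in all 18 cultures, Socs3 fell to 5.76 RPKM in Th2 cultures at 24 h, and Socs5, Socs6 and Socs7 stayed within 5.96 to 11.1 RPKM in the cultures.

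Cish encodes a cytokine-inducible SH2 protein that limits IL-2 and T cell receptor signalling, and lies at chr9:107296026-107302784 on the plus strand of GRCm38. Its RNA was 14.6 and 14.9 RPKM at rest and higher in all 18 cultures. In Th0 cultures it was 63.6, 50.2, 70.7, 93.9, 105 and 92.3 RPKM at 4, 8, 12, 16, 20 and 24 h. Th1 cultures had less, 39.3, 46.4, 60.4, 69.6, 79.7 and 83.8 RPKM at the same times. Th2 cultures had the most, 127, 120.3, 132, 157, 163 and 132 RPKM. The lowest Th2 value was above the highest value of Th0 and of Th1, so the Th2 range did not overlap with the others. Against rest, Cish rose by a log2 change of 2.17 at 4 h (SE 0.49, adjusted p = 0.00285) and 2.87 at 20 h (SE 0.49, adjusted p = 0.000102).

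The size of the early rise differed between cultures. At 4 h, Cish was 2.67 times its resting mean in Th1, 4.31 times in Th0 and 8.62 times in Th2 cultures. By 24 h it was 5.68, 6.26 and 8.98 times that mean, so Th1 cultures gained 2.13-fold between 4 and 24 h while the Th2 ratio of these times was 1.04. At single libraries per point these ratios have no replicate error of their own.

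Socs2, which restrains growth hormone receptor signalling and, in T cells, Th2 differentiation, lies at chr10:95385362-95417180 on the minus strand. It had 5.59 and 6.06 RPKM at rest, the second lowest level of the family. Th0 cultures had 8.51, 12.2, 11.2, 12.3, 19.0 and 27.9 RPKM from 4 to 24 h, and Th1 cultures 6.24, 10.9, 11.9, 13.3, 20.6 and 33.4 RPKM. In Th2 cultures it was 11.9, 9.98, 10.4, 10.1, 12.5 and 20.7 RPKM. Most of its gain thus came after 16 h in every condition. All 18 cultures were above both resting libraries, although the Th1 culture at 4 h was only 1.07 times their mean. Socs2 was past the adjusted p from 8 h on, though at 8 h not without resting replicate 2 (0.0560) or the Th0 cultures (0.0543), and was called at 20 h (log2 change 1.47, SE 0.24, adjusted p = 6.55e-05) and 24 h (2.11, SE 0.24, adjusted p = 1.63e-06). At 16 h its change of 0.97 fell just short of 2-fold, and it was called there under 5 of the alternative settings.

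Socs1 encodes the inhibitor that binds JAK catalytic domains directly and limits interferon-γ signalling. It lies at chr16:10782240-10785536 on the minus strand. RefSeq promoters of GRCm38.p6 were available for 3 of the 7 genes, Socs1, Socs3 and Cish, and the 250 bases before the start of each were searched for the STAT motif TTCNNNGAA, its STAT6 form TTCNNNNGAA and the interferon response motif GAAANNGAAA, on both strands. Over 32851 promoters, 7.02% held TTCNNNGAA, 5.85% held TTCNNNNGAA and 2.98% held GAAANNGAAA in this window. The window of Socs1 is shown because it held GAAANNGAAA at 2 overlapping places, written in capitals. Of all promoters, 0.180% held this motif at 2 or more places, overlapping or apart. The Socs1 window lies at chr16:10785537-10785786, minus strand, outside annotated exons, and the matches span bases 83 to 74 and 77 to 68 before the start.
Socs1 promoter: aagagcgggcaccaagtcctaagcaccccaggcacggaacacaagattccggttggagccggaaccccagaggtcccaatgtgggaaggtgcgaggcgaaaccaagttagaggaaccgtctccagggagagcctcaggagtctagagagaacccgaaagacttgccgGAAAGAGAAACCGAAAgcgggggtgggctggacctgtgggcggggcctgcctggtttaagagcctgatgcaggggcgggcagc
Socs3 motif: gaaaccagccTTCTTAGAAgggagggggg
The Socs3 window held 1 TTCNNNGAA, at bases 154 to 146 before the start, shown here with 10 bases on either side (chr11:117969502-117969530, minus strand, in no annotated exon). That window lies inside the annotated span of Socs3, with 77 of its 250 bases in exons, so its start is not the outermost start of the gene. The Cish window held none of these letters and lies inside an annotated exon. A match is a description of the letters and was not tested as a binding site.

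Socs1 had 15.2 and 16.8 RPKM at rest. The values were whole multiples of 1 read, so the reads could be recovered, 366 and 483 at rest and up to 4721 in a culture, and 95% exact Poisson intervals for counting error were 13.7 to 16.8 and 15.4 to 18.4 RPKM. Th0 cultures fell from their highest value at 4 h, with 159, 115, 90.4, 79.7, 74.7 and 53.3 RPKM. Th1 cultures had 75.3, 55.5, 40.4, 59.5, 60.3 and 47.4 RPKM, and Th2 cultures 179.6, 84.9, 69.9, 70.2, 98.2 and 58.9 RPKM. The highest level was thus at 4 h in each condition, and in Th0 and Th2 cultures 24 h had 0.335 and 0.328 of the value at 4 h. All 18 cultures stayed above rest. The log2 change was 2.98 at 4 h (SE 0.36, adjusted p = 1.25e-05) and 1.70 at 24 h (SE 0.36, adjusted p = 0.000659).

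Socs3, an inhibitor recruited to gp130 receptors such as that of IL-6, lies at chr11:117966079-117970047 on the minus strand, and it was the gene of the family that fell. It had 39.2 and 42.5 RPKM at rest. Th0 cultures had 47.8, 36.8, 23.3, 21.5, 18.2 and 14.3 RPKM from 4 to 24 h. In Th1 cultures it was 32.7, 19.5, 15.6, 25.8, 20.5 and 16.7 RPKM, lowest at 12 h. The Th2 cultures had 48.8, 15.1, 9.35, 9.37, 8.33 and 5.76 RPKM, with most of the loss between 4 and 8 h. Of the 18 cultures, 16 were below both resting libraries, and the Th0 and Th2 cultures at 4 h were above them.

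Socs3 was called lower at 12 h (log2 change -1.41, SE 0.51, adjusted p = 0.0249), 20 h (-1.45, SE 0.51, adjusted p = 0.0207) and 24 h (-1.82, SE 0.51, adjusted p = 0.00513). At 16 h the change was -1.21 with an adjusted p of 0.0514. The call at 12 h was lost without either resting library (adjusted p = 0.0812 without replicate 1 and 0.106 without replicate 2) or without the Th1 cultures (0.0679), and that at 20 h without either resting library (0.0710 and 0.0921). The call at 24 h was kept under every alternative run. Macrophage markers, 843 and 863 RPKM at rest, were at 80.5 to 120 RPKM at 4 h and 17.3 to 25.8 RPKM at 24 h. Red cell markers, at 29414 to 47155 RPKM at 4 h, fell over the same later hours as Socs3. The part of either cell type in its fall was not tested.

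Socs5, Socs6 and Socs7, whose proteins have long amino-terminal regions, varied little. Socs5, at chr17:87107679-87137839 on the plus strand, had 4.65 and 4.83 RPKM at rest and 5.96 to 8.22 RPKM in the 18 cultures, all above rest. Its change was past the adjusted p at each time point but under 2-fold. The log2 changes ran from 0.34 at 20 h (SE 0.11, adjusted p = 0.0106) to 0.68 at 12 h (SE 0.11, adjusted p = 5.10e-05). Of all genes, 31.7%, 50.4%, 61.4%, 59.7%, 63.7% and 65.2% were past the adjusted p at any size at the 6 time points. Socs5 did not pass the adjusted p at 20 h without the Th1 cultures (0.0864) or resting replicate 2 (0.0697), nor at 24 h without the same libraries (0.0514 and 0.0618). Under quantile normalization the changes of Socs5 at 8 and 12 h exceeded 2-fold, with log2 changes of 1.14 and 1.18.

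Socs6 had 9.01 and 9.37 RPKM at rest and 7.06 to 11.1 RPKM in the cultures, of which 12 were above and 6 below both resting libraries. The resting libraries of Socs7 stood at 8.63 and 6.84 RPKM, a log2 difference of -0.31 that was the widest of the 7 genes on that scale, and its cultures had 7.08 to 10.8 RPKM. Neither gene was past the adjusted p at any time point by limma, and Socs7 had an unadjusted p under 0.05 at 4, 8 and 12 h. Socs4 had 12.7 and 12.9 RPKM at rest and 10.3 to 17.1 RPKM in the cultures, of which 4 were above and 12 below both resting libraries.

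The conditions were compared over the 6 time points, with time as a factor, so time points took the place of repeats of a condition. Of the 7 genes, 0 were called between Th1 and Th0, where 0.494% of 10737 genes were. Between Th2 and Th0 also 0 were called, against 2.01% of all genes. At an unadjusted p under 0.05 limma gave 2 of the 7 genes in each of these comparisons, and 1757 and 4423 of all genes. Between Th2 and Th1 Cish alone was called, against 1.96% of all genes. Past the adjusted p at any size were 1, 2 and 3 of the 7 genes in these comparisons, against 2.27%, 29.6% and 12.2% of all genes.

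Cish was ordered Th2, Th0, Th1 at all 6 time points. Its log2 difference was 1.17 between Th2 and Th1 (SE 0.10, adjusted p = 1.18e-06) and 0.84 between Th2 and Th0 (SE 0.10, adjusted p = 3.37e-05). The ratio of Th2 to Th1 ran from 1.58 to 3.23 over the time points. Th1 was lower than Th0 at each time, with ratios from 0.618 to 0.924, but the adjusted p of that difference was 0.129. With only 12 to 24 h the Th2 and Th1 difference was 0.995, just under 2-fold, with an adjusted p of 3.47e-06.

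Socs1 was lower in Th1 cultures than in either other condition at all 6 time points, each time beyond counting error. Th1 was 0.447 to 0.889 of Th0, a log2 difference of -0.69 (SE 0.13, adjusted p = 0.0107), and Th2 was 1.18 to 2.38 times Th1, a log2 difference of 0.65 (SE 0.13, adjusted p = 0.00386). The distance from Th0 was widest at 12 h, with a ratio of 0.447 (95% interval for counting error 0.421 to 0.475), and narrowest at 24 h, 0.889 (0.830 to 0.952). Over the course, the difference from Th0 no longer passed the adjusted p without the 12 h time point (-0.60, adjusted p = 0.0968) or with only 12 to 24 h (-0.51, adjusted p = 0.110). Between Th2 and Th0 the sign changed, with Th2 higher at 4, 20 and 24 h and lower at 8, 12 and 16 h. These 2 conditions did not differ past the test over the whole course.

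Socs3 was lower in Th2 than in Th0 and in Th1 cultures at 5 of 6 time points, the exception being 4 h. The log2 difference was -0.995 against Th0 (SE 0.21, adjusted p = 0.00268), at the border of the 2-fold limit, and -0.77 against Th1 (SE 0.21, adjusted p = 0.0217). At its lowest the ratio of Th2 to Th0 was 0.401 and that of Th2 to Th1 was 0.345. Without the 4 h time point the differences were -1.20 and -1.04, and both were then called. The difference from Th1 no longer passed the adjusted p without the 12 h (0.0614), 16 h (0.115), 20 h (0.0992) or 24 h (0.0884) time point, with values from -0.63 to -0.78, or with no filter on low values (0.0587). Macrophage markers, of which 1 of 9 tested was lower in Th2 than in Th0 cultures where 1.83% of all genes were, had a median sum of 36.7 RPKM in Th2 cultures, against 54.4 RPKM in Th0 and 53.6 RPKM in Th1. Their part in the difference of Socs3 was not tested.

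Socs2 ranges overlapped between all conditions, although Th2 had 0.660 of the Th0 value and 0.610 of the Th1 value at the lowest ratios. Socs5, Socs6 and Socs7 had ratios between conditions of 0.732 to 1.32 at all time points, and these 3 genes and Socs2 did not pass the adjusted p.

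**Figure D3:**
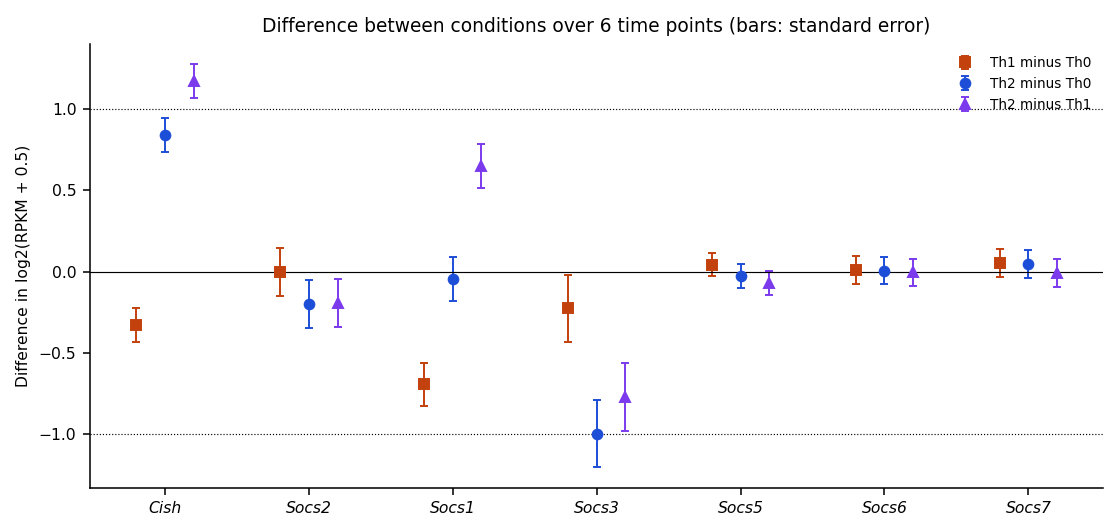
Points give the limma difference in log2(RPKM + 0.5) between conditions over 6 time points for each gene, bars are standard errors, and dotted lines mark 2-fold. Cish lies above 0 in Th2 against both other conditions, Socs3 lies below 0 in the same comparisons, and Socs1 is displaced only where Th1 is compared.

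Whether the differences between conditions changed with time was tested as the difference at 16 to 24 h minus that at 4 to 12 h. None of the 7 genes was called in any of the 3 pairs of conditions, among 0%, 0.41% and 0.0838% of all genes for Th1 against Th0, Th2 against Th0 and Th2 against Th1. At an unadjusted p under 0.05 there were 2, 1 and 4 of the 7 genes, and 951, 2352 and 1170 of the 10737 genes tested, by limma in each case.

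After actinomycin, Cish and Socs1 fell and Socs3 rose relative to the other RNAs. Cish had 94.0, 58.6, 28.5 and 39.2 RPKM at 0, 1, 2 and 4 h. Socs1 had 52.0, 39.2, 24.7 and 22.8 RPKM. Cish was thus at 0.303 of its start at 2 h and 0.417 at 4 h, so that its loss did not continue between these libraries, and Socs1 was at 0.474 and 0.439. Socs3 went the other way, with 13.0, 14.2, 15.7 and 21.8 RPKM, an order that never turned. RPKM is a share of the RNA left in the library, so a rise is relative to the loss of the others.

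The slope of log2(RPKM + 0.5) was -0.31 per h for Cish (SE 0.06, limma adjusted p = 1.92e-05), -0.30 for Socs1 (SE 0.06, adjusted p = 3.34e-05) and 0.18 for Socs3 (SE 0.06, adjusted p = 0.0284). Of the 7 genes, 3 were past the adjusted p, against 20.9% of 10571 genes. Over all genes the median slope was 0.0022, and 90% of slopes lay between -0.26 and 0.23, so Cish and Socs1 lay below that range and Socs3 within it. An exact permutation of the 4 times gave two-sided p = 0.292 for Cish, 0.125 for Socs1 and 0.0417 for Socs3, the last being the smallest value that 24 orders can give. Here the limma SE of a gene rests mostly on the spread of other genes, and the permutation only on the gene's own 4 values. Each of the limma calls rests on 1 library per time. Without the 0 h library none of the 7 genes was called, where 656 of 10578 genes were. The slopes were then -0.13 for Cish, -0.23 for Socs1 and 0.20 for Socs3. Without the 4 h library they were steeper for Cish and Socs1, -0.85 and -0.53. Cish was also not called under quantile normalization (limma adjusted p = 0.0534) or with no filter on low values (0.143). Socs3 was also not called without the 1 h library (limma adjusted p = 0.112) or the 4 h library (0.634), with no filter on low values (0.0838) or with no intensity trend in the fit (0.0600).

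**Figure D4:**
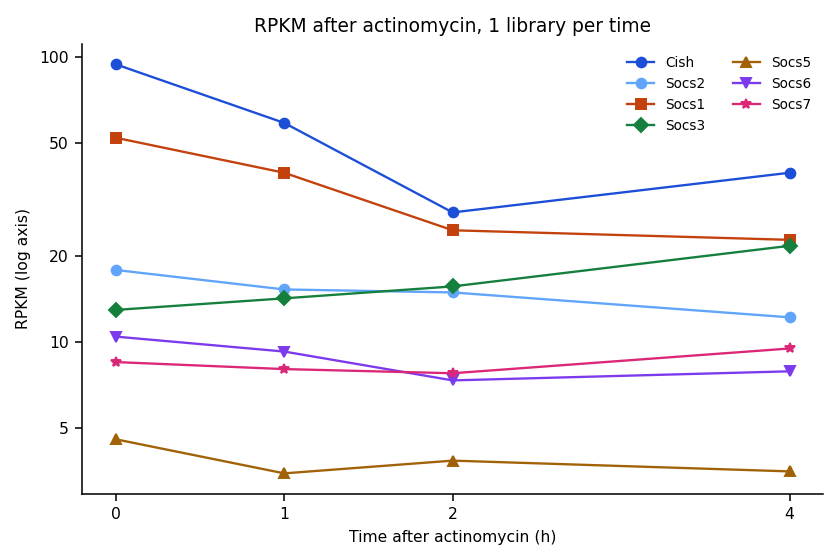
RPKM on a log axis is plotted against hours after actinomycin for the 7 genes, with 1 library per time. Cish falls from 94.0 to 28.5 RPKM by 2 h, Socs1 from 52.0 to 22.8 RPKM by 4 h, and Socs3 climbs from 13.0 to 21.8 RPKM.

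Socs2 had 17.9, 15.3, 14.9 and 12.2 RPKM, falling at each step, with an exact permutation p of 0.0417 but no call by limma (adjusted p = 0.159). Socs5 had 4.57, 3.48, 3.85 and 3.53 RPKM, Socs6 10.5, 9.28, 7.35 and 7.91 RPKM, and Socs7 8.52, 8.06, 7.79 and 9.51 RPKM, and none was past the adjusted p. Set beside the 16 h cultures, the 0 h library was within their range for Cish (69.6 to 157 RPKM) and Socs3 (9.37 to 25.8 RPKM). It was below that range for Socs1 (59.5 to 79.7 RPKM), Socs5 (6.42 to 7.33 RPKM) and Socs7 (8.91 to 9.42 RPKM). For Socs2 (10.1 to 13.3 RPKM) and Socs6 (8.66 to 10.2 RPKM) it was above. In the actinomycin libraries B cell markers summed to 3.92 to 5.03 RPKM and NK cell markers to 32.2 to 35.1 RPKM, below every culture. Macrophage markers summed to 79.7 to 98.1 RPKM, against 26.7 to 62.5 RPKM in the 8 to 20 h cultures. The part of such cells in these differences was not tested.

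The other genes of the pathway were read from lists, described by counts of called genes and by the median log2 change beside that of all genes, which was -0.04 at 4 h and at 24 h. Of all genes, 2.61% rose and 7.97% fell at 4 h, and 12.7% rose and 17.4% fell at 24 h. Of the 11 STATs and Janus kinases, 3 rose and 1 fell at 4 h, with a median change of 0.93. Stat5a, a transcription factor of IL-2 signalling, rose from a mean of 25.6 RPKM at rest to 55.4 to 122 RPKM at 4 h and 105 to 163 RPKM at 24 h (log2 change 2.38, SE 0.43, adjusted p = 0.000143). Stat3 rose at 4 h by 1.24 (SE 0.35, adjusted p = 0.0132), a call lost without either resting library and without the Th0 or the Th1 cultures (adjusted p up to 0.0815). Jak3, the kinase of the common γ chain, fell at 4 h (log2 change -1.15, SE 0.19, adjusted p = 0.000261), and Jak1 fell at 24 h (-1.27, SE 0.17, adjusted p = 8.59e-06).

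Among cytokines, 7 of 11 tested genes rose at 4 h and 6 at 24 h, with median changes of 1.84 and 2.19. Il2, the growth factor of activated T cells, went from a mean of 1.37 RPKM at rest to 7.07 to 38.2 RPKM at 4 h and 104 to 200 RPKM at 24 h (log2 change 6.19, SE 0.52, adjusted p = 4.47e-08). Among 19 tested receptor genes, 3 rose, a share near that of all genes, and 9 fell at 24 h, with a median change of -0.84. Il2ra, the high-affinity chain of the IL-2 receptor, rose to 192 to 276 RPKM (log2 change 3.63, SE 0.30, adjusted p = 3.87e-08), whereas Il7r fell (log2 change -2.54, SE 0.76, adjusted p = 0.00754), as did Il6ra (-2.20, SE 0.31, adjusted p = 1.54e-05). Of 15 genes listed as targets of IL-2 and STAT5, which leaves out Cish and Socs2, 5 rose at 4 h and 9 at 24 h, with a median change of 2.58 at 24 h. Gzmb, a granule protease, was among them (log2 change 4.03, SE 0.71, adjusted p = 0.000115).

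Other negative regulators were mostly not called. Of 13 phosphatases, PIAS proteins, adaptors and ligases that restrain JAK and STAT signalling, 1 rose and 1 fell at 4 h and 2 fell at 24 h, with median changes of 0.24 and -0.10. Cblb, a ubiquitin ligase, rose from 23.8 to 78.6 to 83.4 RPKM at 4 h (log2 change 1.76, SE 0.17, adjusted p = 1.10e-06), and Ptpn6, the phosphatase SHP-1, fell (-1.28, SE 0.21, adjusted p = 0.000210). At 24 h Usp18, a protease that limits interferon receptor signalling, fell (log2 change -1.52, SE 0.41, adjusted p = 0.00418), as did Cbl, a ubiquitin ligase (-1.34, SE 0.16, adjusted p = 3.21e-06). Of the 10 tested genes listed as partners of the SOCS box, 4 rose at 24 h, with a median change of 0.85. Which cullin the SOCS proteins used was not tested. Cul2, a cullin, rose from 14.3 to 39.5 to 46.9 RPKM (log2 change 1.59, SE 0.14, adjusted p = 8.97e-08), and Tceb1, elongin C, rose by 1.14 (SE 0.18, adjusted p = 4.11e-05), or by 0.91 and so under 2-fold without the Th2 cultures.

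The genes induced by interferon-γ separated Th2 cultures from both other conditions. Of 16 tested, 13 were lower in Th2 than in Th0 cultures and 14 lower in Th2 than in Th1 cultures, with medians of -2.18 and -2.19, where 1.83% and 1.39% of all genes were lower. Between Th1 and Th0, 2 of the 16 were higher in Th1, where 0.177% of all genes were. The median of the 16 was -0.24. Th2 cultures held an antibody against IFN-γ. Socs1, which interferons are known to induce, averaged 93.6 RPKM in Th2 and 95.3 RPKM in Th0 cultures, and 56.4 RPKM in Th1 cultures. Ifng itself averaged 398 RPKM in Th1 cultures, against 52.5 RPKM in Th0 and 68.1 RPKM in Th2 (Th1 against Th0 log2 difference 3.15, SE 0.26, adjusted p = 8.68e-06). NK cell markers, some of which activated T cells also make, had a median sum of 154 RPKM in Th1 cultures. The median sum was 76.8 RPKM in Th0 and 90.8 RPKM in Th2. Of the 7 markers, 3 were higher in Th1 than in Th0, where 0.177% of all genes were.

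Of 7 tested genes listed as targets of IL-4 and STAT6, 4 were higher in Th2 than in Th1 cultures and 1 was higher in Th2 than in Th0. The medians were 1.13 and 0.66, and 0.568% and 0.186% of all genes were higher in these comparisons. Il4ra, the IL-4 receptor chain, averaged 40.6 RPKM in Th1 cultures against 124 RPKM in Th0 and 125 RPKM in Th2, and was like Socs1 lowest in Th1 (Th1 against Th0 log2 difference -1.42, SE 0.23, adjusted p = 0.00304). Ccr4 was at 65.0 RPKM in Th2 against 16.3 and 9.63 RPKM in Th0 and Th1 cultures (Th2 against Th1 log2 difference 2.74, SE 0.08, adjusted p = 1.57e-12), and Gata3 at 27.5 against 17.7 and 8.58 RPKM (1.60, SE 0.14, adjusted p = 1.24e-06). Stat5a averaged 161 RPKM in Th2 cultures, 119 RPKM in Th0 and 78.9 RPKM in Th1, the order of Cish, and Th2 exceeded Th1 by 1.00 on the log2 scale (SE 0.11, adjusted p = 1.68e-05), which was under 2-fold in 5 of the alternatives.

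**Figure D5:**
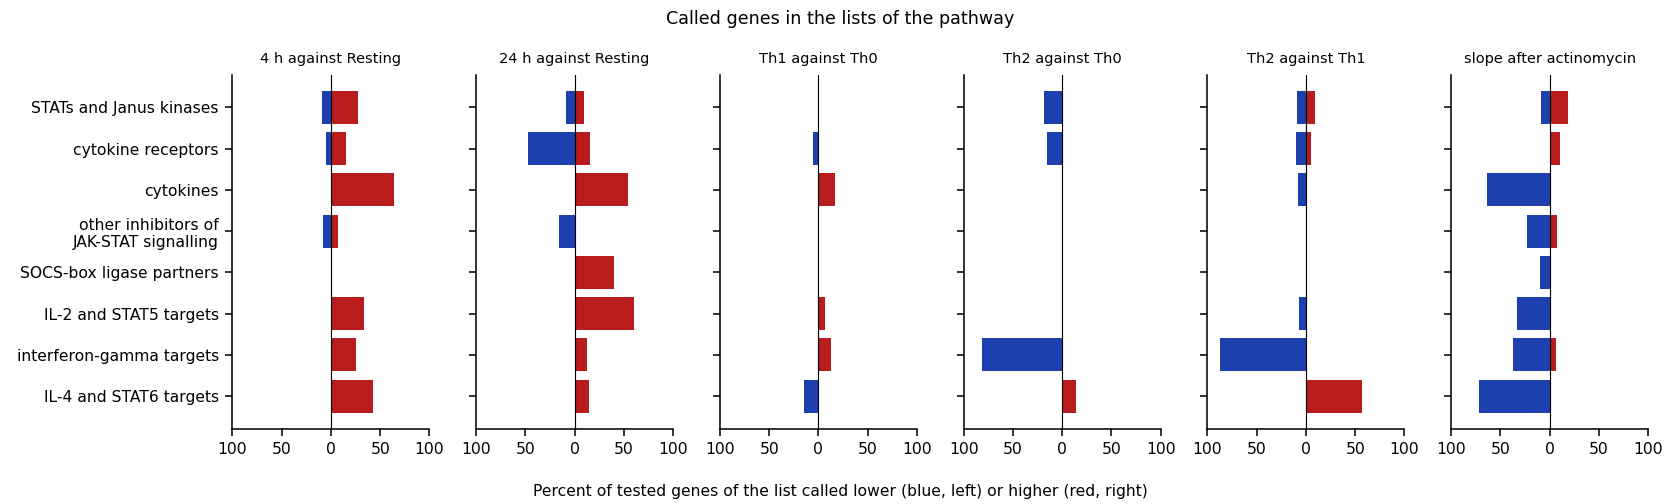
Bars give the percent of tested genes of each list called higher, to the right in red, or lower, to the left in blue, in 6 comparisons named above the panels. Of the interferon-γ genes, 13 of 16 were lower in Th2 than in Th0 cultures, and of the cytokines 7 of 11 had falling slopes after actinomycin.

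After actinomycin, 7 of 11 cytokines, 5 of 7 listed IL-4 and STAT6 genes, 6 of 16 interferon-γ genes and 5 of 15 IL-2 and STAT5 genes had falling slopes past the adjusted p, where 12% of all genes did. Among STATs and Janus kinases 2 slopes rose and 1 fell, and among receptors 2 rose. Among other inhibitors 1 rose and 3 fell, and among listed SOCS box partners 1 fell.

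The genes whose pattern was most like each member were found by Pearson's r of log2(RPKM + 0.5) over the 20 libraries of the time course, among the 8478 genes whose mean reached 5 RPKM. These r share the depth and composition of the same libraries and are descriptions. Cish was most like Stat5a (r = 0.935), then Syngr2 (0.928) and Ap2m1 (0.926). Socs1 was most like Sh2d2a (0.948), which encodes a T cell adaptor, Rnf19b (0.947) and Pptc7 (0.890). Socs3 was most like Txk (0.975), a Tec-family kinase of T cells, Tlr1 (0.965) and Whsc1l1 (0.965), and Socs2 like Rmdn3 (0.900), Cers5 (0.891) and Nrn1 (0.883). Socs5 was nearest to Usp34 (0.939), Hnrnpdl (0.937) and Cd274 (0.936), Socs6 to 1810030O07Rik (0.834), Traf2 (0.825) and Son (0.812), and Socs7 to Jarid2 (0.829), Napa (0.825) and Zdhhc9 (0.814).

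With the mean of each time point subtracted, the 18 cultures kept differences between conditions together with those of single libraries. The neighbours among 8358 genes changed. Cish was then nearest to Cst7 (r = 0.978), Tnfsf8 (0.978) and Atf3 (0.966), while Socs1 was nearest to Il4ra (0.954), and among its 3 nearest was Glipr2 (0.946). Socs3 kept Txk as its nearest gene (0.977), followed by Flt3l (0.974) and Ifi27 (0.964). Socs2 was nearest to Igfbp4 (0.952), Rgs1 (0.901) and Gpr83 (0.871), Socs6 to 5031439G07Rik (0.880), St3gal2 (0.812) and Copa (0.804), and Socs7 to Cbfb (0.786), Txndc12 (0.776) and Aggf1 (0.758). Zfp617 (0.835) and Dgkd (0.820) were among the 3 genes nearest to Socs5.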

How the data were processed

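RPKM values per gene were deposited by the authors in 1 table of 24 libraries. Per the submitters' processing notes, reads were aligned with BWA to GRCm38. The counter and annotation are not given in the sources used here. The columns were mapped to samples by title, and each value was used as deposited. Mapped reads per library were recovered from the spacing of the RPKM values, which also gave whole reads for Socs1 and Socs5 (gene length taken from the spacing, 1220 and 4392 bases), but not for the other 5 genes, whose counting error is therefore unknown. Counting intervals cover counting error only.

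Values were fitted as log2(RPKM + 0.5) for the genes whose mean reached 1 RPKM. The fits used limma 3.58.1 in R 4.3.3 with its intensity trend, p-values were adjusted over all genes by Benjamini-Hochberg, and the fits were tested on simulated data. Cultures of a time point served as its libraries against rest, conditions were compared with time as a factor, and actinomycin as a slope. Because each culture has 1 library, p-values measure the spread between cultures and time points. They do not measure the spread between mice or between repeat cultures of a condition. Per the study, cells were taken from the cultures at successive times, so libraries of a condition may not be independent. Named genes are the 7 members, up to 2 called genes of largest rise and fall per list and comparison, and 3 neighbours, a few of which are not reported here. The members and lists were chosen with earlier results of these data known. Alternatives were pseudocount, filter, scaling, trend, the libraries in the fit and leaving out libraries.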

Additional observations from a re-analysis of the deposited data

How the results depend on the processing

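Of 189 recomputed counts of called SOCS genes, 180 stayed within 1.5 times of those given. A count of 0 that stayed 0 was taken as unchanged. Of 1325 recomputed changes of single genes 1252 kept their direction and their call, while 55 lost a call, 18 gained one and 0 turned their sign. These were changes of members past the adjusted p or called under some setting, and of list genes named for large called changes. A change that kept its call status could still lose the adjusted p, as given above. Quantile normalization shifted the median over all genes at 24 h from -0.04 to 0.13 (log2). Under it 4 of the 7 genes were called against rest at 8 h, 5 at 12 h and 4 at 16 h. Of 10889 genes, 2183, 3018 and 2962 were called at these times, and the cause was not tested. Between Th2 and Th0 cultures 1 gene, Socs3, was called with a pseudocount of 0.1 or with only 12 to 24 h. In these fits 265 of 10737 and 208 of 10556 genes were called. Leaving out each time point in turn gave 0 to 1 between Th2 and Th0 and 1 to 2 between Th2 and Th1, the higher value coming without 4 h. After actinomycin 1 of the 7 genes was called with no filter on low values, where 698 of 16416 genes were. With each library left out in turn, 0 to 3 were called. Fewest were called without the 0 h library, where 656 of 10578 genes were. Leaving out each condition or resting library gave 2 to 3 at 12 h, 2 to 3 at 16 h and 3 to 4 at 20 h. No paired analysis was possible because the resting libraries alone carry replicate numbers, and each culture is 1 library. Every one of the 7 genes had 63.8 or more reads per kilobase in each library, and the number of cultures, with 4 libraries after actinomycin, limits the precision.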
